A study of Homo sapiens with 12 samples.

Results

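The histone genes were taken as the rows of the count table whose symbol began with HIST1H, HIST2H, HIST3H, HIST4H, H1F, H2AF or H3F, without those whose symbol ended as a pseudogene. This gave 91 of 60668 rows. Of these, 74 were replication-dependent genes (6 for H1, 17 for H2A, 22 for H2B, 14 for H3 and 15 for H4), 16 were variant genes (4 for H1, 9 for H2A and 3 for H3) and 1 was an antisense RNA, H1FX-AS1. The class was set by the symbol alone. Symbols starting with HIST were taken as replication-dependent, and the others, but for H1FX-AS1, as variant. The RNA-seq libraries came from PANC-1, a pancreatic adenocarcinoma line, carrying shFOSL1 or a scramble shRNA, and from H1299, a lung carcinoma line, carrying shHDAC2 or a scramble shRNA, with 3 libraries in each of the 4 groups. All cells, controls included, had received a lentiviral hairpin and puromycin. The labels show 1 hairpin for each target, and they call the replicates biological, but whether these were transduced separately was not stated, so the p-values may measure only the spread between cultures of the same knockdown. FOSL1 is a subunit of the AP-1 transcription factor and HDAC2 is a histone deacetylase of class I. Cell line and target were confounded, and each knockdown was compared with scramble of its own line.

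Histones package DNA into nucleosomes. The core histones H2A, H2B, H3 and H4 form the particle and H1 binds the linker DNA. The replication-dependent genes lie in clusters, are transcribed in S phase, and give mRNAs that end just after a conserved stem-loop and carry no poly(A) tail. This stem-loop is bound by SLBP. The variant genes lie singly, mostly give polyadenylated mRNAs, and are expressed through the cell cycle. Some replication-dependent genes can also give longer, polyadenylated mRNAs that run past the stem-loop.

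The 3′ stem-loop was the sequence that set both classes apart. In the 100 bases after each stop codon of GRCh38 (GENCODE 44), the pattern GGNNNTNNTNANNNCC with a perfect stem of 6 base pairs, read on the strand of the gene, was found in 66 of 68 coding replication-dependent genes, in 1 of 16 variant genes and in 0.367% of all 19602 coding genes searched. Of the 72 coding genes with a match, 67 were the histone genes counted here, so the share over all genes consists mostly of them. Both replication-dependent genes without a match were HIST1H2AG and HIST1H2AK, and the variant with one was H2AFX. The following examples are shown because each stands for a core shared by several genes or for a gene described below. The stem and loop are in capitals, T stands for U of the RNA, and 5 bases are shown on each side.
HIST2H2BE: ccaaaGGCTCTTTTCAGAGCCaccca
HIST1H2BK: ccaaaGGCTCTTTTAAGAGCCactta
HIST1H4H: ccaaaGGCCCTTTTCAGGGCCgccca
HIST1H4I: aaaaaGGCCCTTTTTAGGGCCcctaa
HIST1H3E: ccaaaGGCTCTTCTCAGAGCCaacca
H2AFX: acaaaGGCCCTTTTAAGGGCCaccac
The core of HIST2H2BE, at chr1:149886188-149886203 on the minus strand, was shared by 38 genes of the H1, H2A, H2B and H3 families. The core of HIST1H2BK, at chr6:27146366-27146381 on the minus strand, was shared by 10 genes of those families. Of the H4 genes, 10 had the core of HIST1H4H (chr6:26285131-26285146, minus strand) and 4 that of HIST1H4I (chr6:27139654-27139669, plus strand). The core of HIST1H3E, at chr6:26225596-26225611 on the plus strand, was found in 1 gene. The core of H2AFX was at chr11:119094898-119094913 on the minus strand. H2AFX, the variant whose phosphorylation marks DNA breaks, thus had the 3′ element of the replication-dependent class.

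Levels are given in CPM, counts relative to the library total in the unit of edgeR's cpm function, after TMM scaling of the totals. Libraries held 16065723 to 19173421 counts. The knockdowns were first read from the targeted genes. HDAC2 was 77.7, 68.6 and 78.9 CPM in the H1299 shHDAC2 libraries and 171, 180 and 187 CPM in scramble, a log2 fold change of -1.26 (edgeR adjusted p = 5.4e-15). FOSL1 was 175, 166 and 164 CPM in the PANC-1 shFOSL1 libraries and 222, 214 and 241 CPM in scramble, a log2 fold change of -0.43 (edgeR adjusted p = 2.88e-06). FOSL1 mRNA rose by 0.40 in the HDAC2 knockdown. PANC-1 libraries held 5 of 5 epithelial markers at 1 CPM or more, and KRT19, KRT7, SOX9 and MUC1 of the pancreatic duct, while CFTR did not reach 1 CPM. H1299 libraries held NKX2-1 alone of 5 lung lineage markers at 1 CPM or more. They also held KRT7, SOX9 and MUC1, so that of the duct markers named, KRT19 alone set PANC-1 apart. Of the epithelial markers they held KRT8, KRT18 and CLDN4, and had EPCAM and CDH1 below 1 CPM. None of the 4 haematopoietic markers reached 1 CPM in either line. Of the fibroblast and endothelial markers, COL1A1 and PDGFRB reached 1 CPM in PANC-1, and COL1A1 and PECAM1 in H1299. Scramble replicate 1 of each line stood apart from the other scramble libraries of its group, and comparing counts over genes gave a chi-square over its degrees of freedom of 7.083 and 9.542 against 3.047 in PANC-1, and of 6.914 and 6.209 against 3.605 in H1299. Mitochondrially encoded genes took 12.6 to 13.3% of the counts in PANC-1 shFOSL1 and 6.99 to 7.29% in PANC-1 scramble.

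Most histone counts came from the variant genes. Over all libraries the summed CPM of variant genes was 8.58 times that of replication-dependent genes. CPM is not adjusted for length, and the variants with counts have longer annotated exons than most replication-dependent genes. A mean of at least 1 CPM in any group was reached by 33 replication-dependent and 10 variant genes. No count was found in any of the 12 libraries for 7 replication-dependent genes (HIST2H3C, HIST1H2AA, HIST1H2BA, HIST1H3D, HIST1H2AD, HIST1H4F and HIST1H2AK) and for H1FOO, the oocyte linker histone, which allows up to 0.187 CPM in the shallowest library, for counting error only. HIST1H3D and HIST1H2AD share 96.6% and 85.3% of their exon bases with another gene on the same strand (AL031777.3 in the table), so a count of 0 sets no limit on their RNA. Among the replication-dependent genes the signal was uneven: HIST1H2BK held 25.9% of their summed CPM, and the 5 highest, with HIST1H2AC, HIST1H1C, HIST1H2BD and HIST1H2AG, held 58.2%. Coding sequences within a family are close copies, and how reads matching several genes were counted was not stated, so levels of single genes are uncertain, above all for HIST2H2AA3 and HIST2H2AA4, HIST2H3A and HIST2H3C, and HIST2H4A and HIST2H4B, which are near-identical pairs.

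Per kilobase of annotated exon, HIST1H2BK stood at 126 CPM per kb as a mean of the 12 libraries. Next were HIST1H4I at 33.4, HIST1H2AG at 27.5, HIST1H1C at 23.5, HIST1H2AC at 19.5, HIST1H2BD at 17.0 and HIST2H2BC at 13.7 CPM per kb. HIST1H2BJ stood at 8.08, HIST1H3G at 7.60 and HIST1H3H at 5.66 CPM per kb. The 10 variants ranged from 1.16 CPM per kb for H2AFY2 to 151 for H1F0, with H2AFX at 145, H2AFZ at 141, H3F3B at 92.5, H1FX at 56.4, H3F3A at 34.3 and H2AFY at 8.92 CPM per kb. The highest replication-dependent genes thus lay within the range of the variants. The lengths came from GENCODE 44, where HIST1H2BK is a single exon of 495 bases. RefSeq also lists an end 8073 bases past its stem-loop, over which the level per length was not computed.

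Replication-dependent genes with an annotated longer end had the higher median level. A GENCODE or RefSeq transcript ended at least 50 bases past the stem-loop for 18 replication-dependent genes and for none of the other 48 with a stem-loop. Of the 18, 10 (55.6%) reached 1 CPM per kb, against 14 of 48 (29.2%). The median level was 1.58 CPM per kb in the former and 0.251 in the latter, and both sets ranged down to 0. This is a description over genes that share the 12 libraries, with no test. Of the highest genes, HIST1H2BK, HIST1H2AC, HIST1H2BD, HIST1H2BJ and HIST1H3H had such an end, while HIST1H4I, HIST1H1C and HIST1H3G did not. Whether poly(A) RNA was selected was not stated in the sources used here. RNAs made without a poly(A) tail were examined beside the histones: of 20 such RNAs, RN7SL1, the signal recognition particle RNA, carried nearly all counts, and RN7SK, RMRP and RPPH1 were listed at 0.

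**Figure D1:**
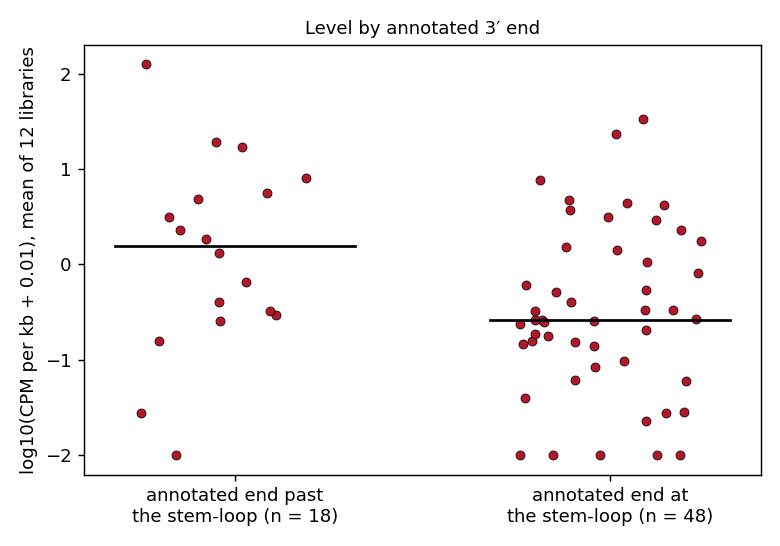
Level of each replication-dependent gene, as log10 of CPM per kb plus 0.01 (mean of the 12 libraries), for the 18 genes with an annotated end at least 50 bases past the stem-loop and the 48 without one. Points are genes and lines are medians. The median of the first set (1.58 CPM per kb) lay above that of the second (0.251 CPM per kb), with wide overlap.

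Summed over the class, the counted replication-dependent histone RNA was lower with each knockdown. The sum includes 4 rows annotated as pseudogenes. Since poly(A) selection was not stated, which mRNA forms the sum holds is not known. It was 256, 245 and 260 CPM in H1299 shHDAC2 (254 ± 7.94 CPM, SD, n = 3) and 383, 360 and 363 CPM in H1299 scramble (369 ± 12.8 CPM, SD, n = 3), a ratio of 0.689. In PANC-1 shFOSL1 the sums were 152, 156 and 155 CPM (154 ± 2.28 CPM, SD, n = 3) against 188, 210 and 169 CPM in scramble (189 ± 20.4 CPM, SD, n = 3), a ratio of 0.816. In both lines every knockdown library lay below every scramble library. Without HIST1H2BK the ratios were 0.654 and 0.766. Summed variant mRNA was 1693 ± 31.9 CPM (SD, n = 3) in H1299 shHDAC2 against 1800 ± 72.6 CPM (SD, n = 3) in scramble, and 2315 ± 58.9 CPM (SD, n = 3) in PANC-1 shFOSL1 against 2480 ± 110 CPM (SD, n = 3) in scramble, ratios of 0.941 and 0.933. These sums were not tested. In bulk RNA, fewer cells in S phase and less histone mRNA in each such cell cannot be told apart.

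**Figure D2:**
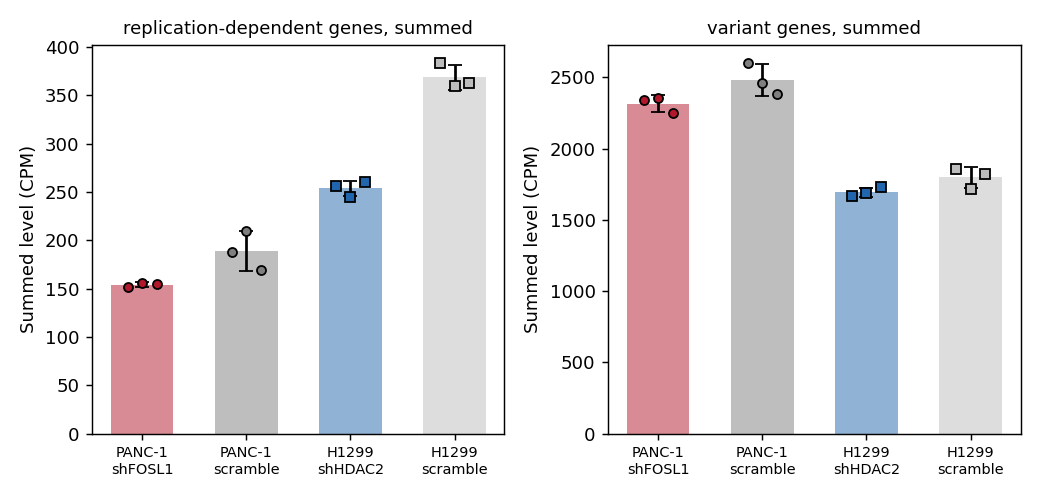
Summed level in CPM of the 74 replication-dependent rows (left) and the 16 variant rows (right) in each group. Bars are means, error bars SD and points the 3 libraries. The H1299 scramble libraries, at 360 to 383 CPM, stood highest on the left, and shHDAC2 lay at 245 to 260 CPM, while on the right the ratios of knockdown to scramble means were 0.933 and 0.941.

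With HDAC2 knockdown, replication-dependent genes of all 5 families fell and none rose. Of 30 tested, 17 (56.7%) fell and 0 rose by edgeR's quasi-likelihood test at an adjusted p under 0.05, where 12.1% of all 16465 genes tested fell, 10.3% rose and 22.4% did either. No replication-dependent gene was higher at an unadjusted p under 0.05 either, and DESeq2 called 14 lower and 0 higher. All 30 log2 fold changes were negative, from -0.92 to -0.01, with a median of -0.62 where the median of all genes was 0.00. With no filter beyond 1 count, 45 of 66 were negative and the median was -0.32. The filter on low counts was passed in both groups by 25 genes, among them all 17 that fell, and through the scramble group alone by 5. By family, 1 of 1 H1 gene fell, 3 of 6 for H2A, 7 of 14 for H2B, 3 of 3 for H3 and 3 of 6 for H4.

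Among the linker and H2A genes, HIST1H2AC, a core H2A gene, was 29.7, 28.8 and 31.7 CPM in the shHDAC2 libraries and 52.6, 53.4 and 53.5 CPM in scramble. The groups lay far apart, and the log2 fold change was -0.83 ± 0.07 (SE, edgeR adjusted p = 6.63e-10). HIST1H1C, the linker histone H1.2, was 17.6, 15.7 and 17.5 CPM against 26.9 to 28.5 CPM, a fall of 0.72 on the log2 scale (edgeR adjusted p = 4.23e-07). HIST1H2AG was 16.3 to 19.1 CPM against 28.3 to 28.8 CPM, a log2 fold change of -0.67 ± 0.09 (SE). Both sets of libraries were tight and apart. HIST1H2AE was 2.01 to 2.29 CPM against 2.54 to 4.09 CPM (log2 fold change -0.74, edgeR adjusted p = 0.0173), and its adjusted p passed 0.05 without shHDAC2 replicate 1 or 3 or scramble replicate 1 or 2, with 0.0558 to 0.0748.

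The H2B genes followed the same direction. HIST1H2BK was 74.4, 71.0 and 77.0 CPM in the shHDAC2 libraries and 101, 88.8 and 92.1 CPM in scramble. It fell by 0.35 on the log2 scale (SE 0.07, edgeR adjusted p = 0.000259). HIST1H2BD was 10.6, 9.33 and 11.4 CPM against 17.3, 17.8 and 17.4 CPM, a log2 fold change of -0.75. HIST1H2BJ was 6.79 to 8.45 CPM against 12.5 to 14.2 CPM, a log2 fold change of -0.77. HIST2H2BE was 6.78 to 7.93 CPM against 10.6 to 12.2 CPM (log2 fold change -0.65), and HIST1H2BN 6.43 to 7.73 CPM against 9.37 to 11.7 CPM (-0.60). In each of these the groups did not overlap. They were named for their level or for a call, and the share of all genes without overlap was not computed. HIST2H2BC and HIST2H2BD, both annotated as pseudogenes, did not pass the test, at log2 fold changes of -0.20 and -0.19, and without scramble replicate 3 the value of HIST2H2BD turned to 0.12. HIST1H2BH, named after its value was seen, had the value nearest to 0 of all 30 genes, at -0.01 ± 0.21 (SE).

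The H3 and H4 genes that fell included HIST1H3H, at 7.33, 6.69 and 7.15 CPM against 12.2, 11.3 and 11.3 CPM (log2 fold change -0.72, edgeR adjusted p = 6.11e-05). HIST1H3G was 3.97 to 6.07 CPM against 7.52 to 9.13 CPM, a log2 fold change of -0.69. HIST1H3B was 0.721, 1.47 and 0.953 CPM against 2.40, 2.06 and 1.52 CPM, and its call (log2 fold change -0.92, edgeR adjusted p = 0.0309) was lost with DESeq2 at an adjusted p of 0.0636 and without shHDAC2 replicate 1 or 3 or scramble replicate 1 or 2, at 0.0712 to 0.152. These low genes rest on few counts. HIST1H4H was 5.24 to 6.37 CPM against 8.47 to 8.92 CPM (log2 fold change -0.61) and HIST1H4K 2.05 to 2.75 CPM against 3.60 to 4.57 CPM (-0.84). HIST1H4I, the H4 gene of highest level per length, was 16.5 ± 0.486 CPM against 20.1 ± 1.46 CPM (SD, n = 3), with groups that did not overlap. Its log2 fold change of -0.29 (edgeR adjusted p = 0.0265) was called neither by DESeq2 (adjusted p = 0.0517) nor without any single shHDAC2 library or scramble replicate 1, at 0.066 to 0.101.

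The variant genes divided under HDAC2 knockdown. Of 10 tested, 5 (50%) fell and 0 rose by edgeR's quasi-likelihood test, where 12.1% of all genes fell and 10.3% rose. The median was -0.11, or 0.08 over the 15 variants kept with no filter beyond 1 count, and 1 was higher at an unadjusted p under 0.05. H1F0, the linker histone H1.0 of slowly dividing and differentiated cells, was 47.7, 60.9 and 61.2 CPM in the shHDAC2 libraries and 98.2, 104 and 111 CPM in scramble. It fell by 0.89 on the log2 scale (SE 0.08, edgeR adjusted p = 3.48e-10) and had the largest value among the variants. H2AFJ, an H2A close to the replication-dependent form, was 79.6, 82.4 and 82.1 CPM against 119, 99.9 and 112 CPM (log2 fold change -0.44). H1FX, a further linker variant, was 51.0, 65.0 and 55.2 CPM against 80.4, 65.4 and 74.3 CPM, a log2 fold change of -0.37 with groups that nearly touched. H3F3B, which encodes H3.3 and is deposited outside replication, was 407, 431 and 445 CPM against 509, 475 and 517 CPM (log2 fold change -0.23, edgeR adjusted p = 0.00332, and 0.0665 without shHDAC2 replicate 1). H2AFY2, which encodes macroH2A2, overlapped between groups at 22.3, 23.5 and 27.3 CPM against 30.3, 26.1 and 30.4 CPM. Its call (log2 fold change -0.25, edgeR adjusted p = 0.0437) was lost with DESeq2 at 0.0818 and without shHDAC2 replicate 1 or 2 or scramble replicate 1 or 3, at 0.0889 to 0.230.

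The other 5 variants were close to scramble. H3F3A, the second H3.3 gene, was 118, 110 and 114 CPM against 118, 104 and 114 CPM. H2AFZ was 373 to 379 CPM against 333 to 377 CPM, H2AFV 155 to 167 CPM against 145 to 150 CPM, and H2AFY 139 to 143 CPM against 130 to 136 CPM. H2AFX, which has the stem-loop, was 254, 243 and 266 CPM against 246, 224 and 225 CPM, a log2 fold change of 0.13 (edgeR adjusted p = 0.113), opposite in sign to all 30 replication-dependent genes tested. Without H1299 scramble replicate 1, which stood apart, H2AFX and H2AFZ were called higher, at log2 fold changes of 0.18 and 0.12.

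**Figure D3:**
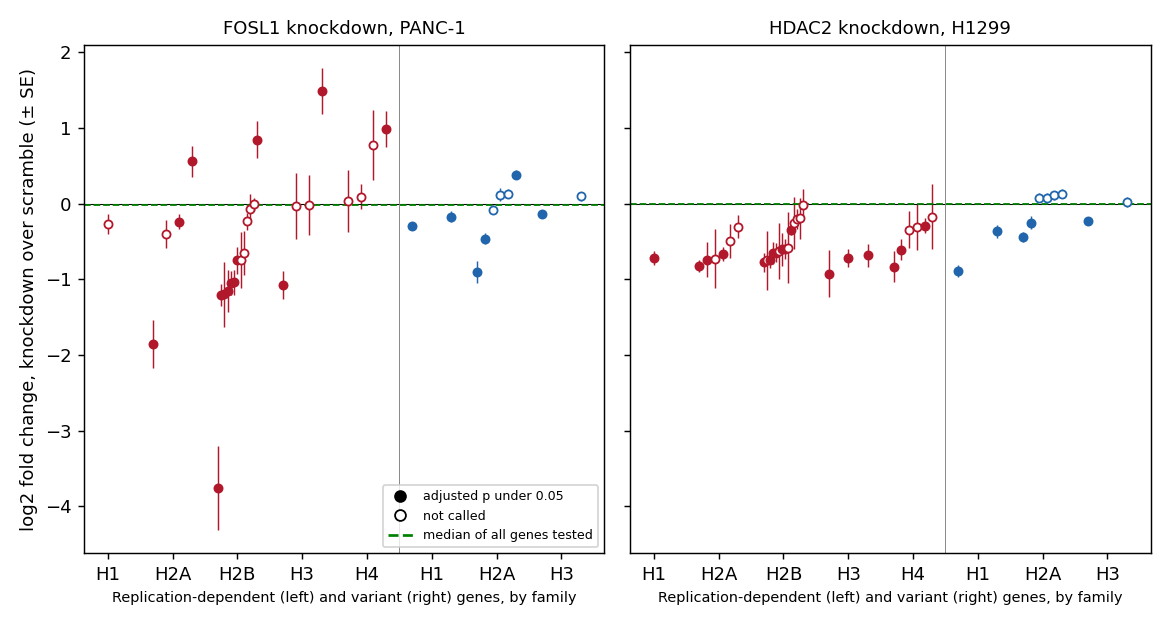
log2 fold change (± SE) of each histone gene tested, for FOSL1 knockdown in PANC-1 (left) and HDAC2 knockdown in H1299 (right), by family, with replication-dependent genes in red and variant genes in blue. Filled points have an edgeR adjusted p under 0.05 and the dashed line is the median of all genes tested. With HDAC2 knockdown all 30 red points lie below 0, and with FOSL1 knockdown they spread from -3.76 to 1.49.

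The FOSL1 knockdown moved the replication-dependent genes in both directions. Of 26 tested, 4 rose and 10 fell by edgeR's quasi-likelihood test at an adjusted p under 0.05, where 23.8% of all 16345 genes tested rose and 27.1% fell. The 14 called were 53.8% of those tested, near the 50.9% called in either direction among all genes. The median log2 fold change was -0.26 where that of all genes was -0.02, but it was 0.0023 over the 61 genes kept with no filter beyond 1 count, of which 30 were negative. The filter was passed in both groups by 19 genes (4 rose and 7 fell), through the scramble group alone by 5 and through the knockdown group alone by 2. By family, H2B genes were mostly lower, with 7 of 13 that fell and 1 that rose. All 4 H4 genes tested had positive values, of which 1 passed the test, and of 4 genes each for H2A and H3, 1 rose in both families while 2 and 1 fell. The only H1 gene tested, HIST1H1C, was not called, at 9.56, 10.0 and 13.0 CPM against 14.0, 14.0 and 11.2 CPM (log2 fold change -0.27, edgeR adjusted p = 0.0928), and it was called without shFOSL1 replicate 3 or scramble replicate 3, at -0.42 and -0.36.

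The H2B genes that fell included HIST1H2BF, named after its values were seen, whose groups overlapped. It was 0.472, 0.292 and 0.836 CPM against 0.762, 1.79 and 1.14 CPM, and passed the filter through scramble alone. HIST2H2BE, a gene with an annotated end past the stem-loop, was 7.49, 8.34 and 6.58 CPM in the shFOSL1 libraries and 15.6, 21.0 and 14.6 CPM in scramble. Its log2 fold change was -1.20 ± 0.14 (SE, edgeR adjusted p = 1.94e-07). HIST1H2BJ was 3.24, 4.67 and 4.91 CPM against 9.20, 8.94 and 8.26 CPM, a log2 fold change of -1.05 ± 0.16 (SE). The annotated pseudogenes HIST2H2BD and HIST2H2BC were 1.65 to 2.84 CPM against 3.21 to 6.99 CPM (log2 fold change -1.15) and 4.19 to 6.24 CPM against 9.55 to 13.7 CPM (-1.04). HIST2H2BF, named after its values were seen because its mean was under 1 CPM, had 5, 1 and 0 counts against 27, 38 and 28, a log2 fold change of -3.76, and passed the filter through scramble alone. HIST1H2BK, the H2B gene of highest level, overlapped between groups. It was 40.9, 40.1 and 41.8 CPM against 44.3, 42.1 and 36.7 CPM, a log2 fold change of -0.01 whose sign turned under other scalings. HIST1H2BD was 13.3 to 15.4 CPM against 15.3 to 17.9 CPM (log2 fold change -0.23, edgeR adjusted p = 0.0871), and it was called without scramble replicate 1, at -0.27.

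Of the other genes that fell, HIST1H2AE was 0.649, 0.700 and 0.558 CPM against 1.90, 2.58 and 2.39 CPM, a log2 fold change of -1.85 (edgeR adjusted p = 3.26e-05), and passed the filter through scramble alone. HIST1H3H was 3.24, 2.97 and 3.18 CPM against 5.55, 8.05 and 6.02 CPM, a log2 fold change of -1.07. HIST1H2AC, at 20.1 to 23.3 CPM against 23.3 to 27.5 CPM, was at the threshold (log2 fold change -0.24, edgeR adjusted p = 0.0486). Its call was lost with DESeq2 at 0.0904 and without shFOSL1 replicate 1 or 3 or scramble replicate 2, at 0.148 to 0.309. HIST1H4I, HIST1H3G and HIST1H3B overlapped between groups, with log2 fold changes of 0.09, -0.03 and -0.02 and signs that turned when single libraries were left out.

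A smaller group rose. HIST1H3E was 2.30, 2.39 and 2.51 CPM in the shFOSL1 libraries and 1.25, 0.684 and 0.623 CPM in scramble, a log2 fold change of 1.49 ± 0.31 (SE, edgeR adjusted p = 0.00029). In H1299 it had at most 0.117 CPM in any library. HIST1H4H was 4.48, 3.38 and 2.84 CPM against 1.90, 1.95 and 1.51 CPM, a log2 fold change of 0.99 (edgeR adjusted p = 0.00122). In GENCODE 44, 13.3% of its exon bases are shared with a gene on the opposite strand. HIST1H2BN was 2.83, 2.80 and 3.07 CPM against 1.36, 1.52 and 1.92 CPM, a log2 fold change of 0.84. All of these, named because they were called, had knockdown libraries above every scramble library. Each has an annotated end past the stem-loop, but of the 14 tested genes with such an end, 3 rose and 6 fell. HIST1H2AG was 5.49, 3.91 and 4.52 CPM against 2.77, 4.05 and 2.54 CPM. The groups overlapped, and the call (log2 fold change 0.56, edgeR adjusted p = 0.0276) was lost without shFOSL1 replicate 1 at 0.143 and without scramble replicate 3 at 0.0849.

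**Figure D4:**
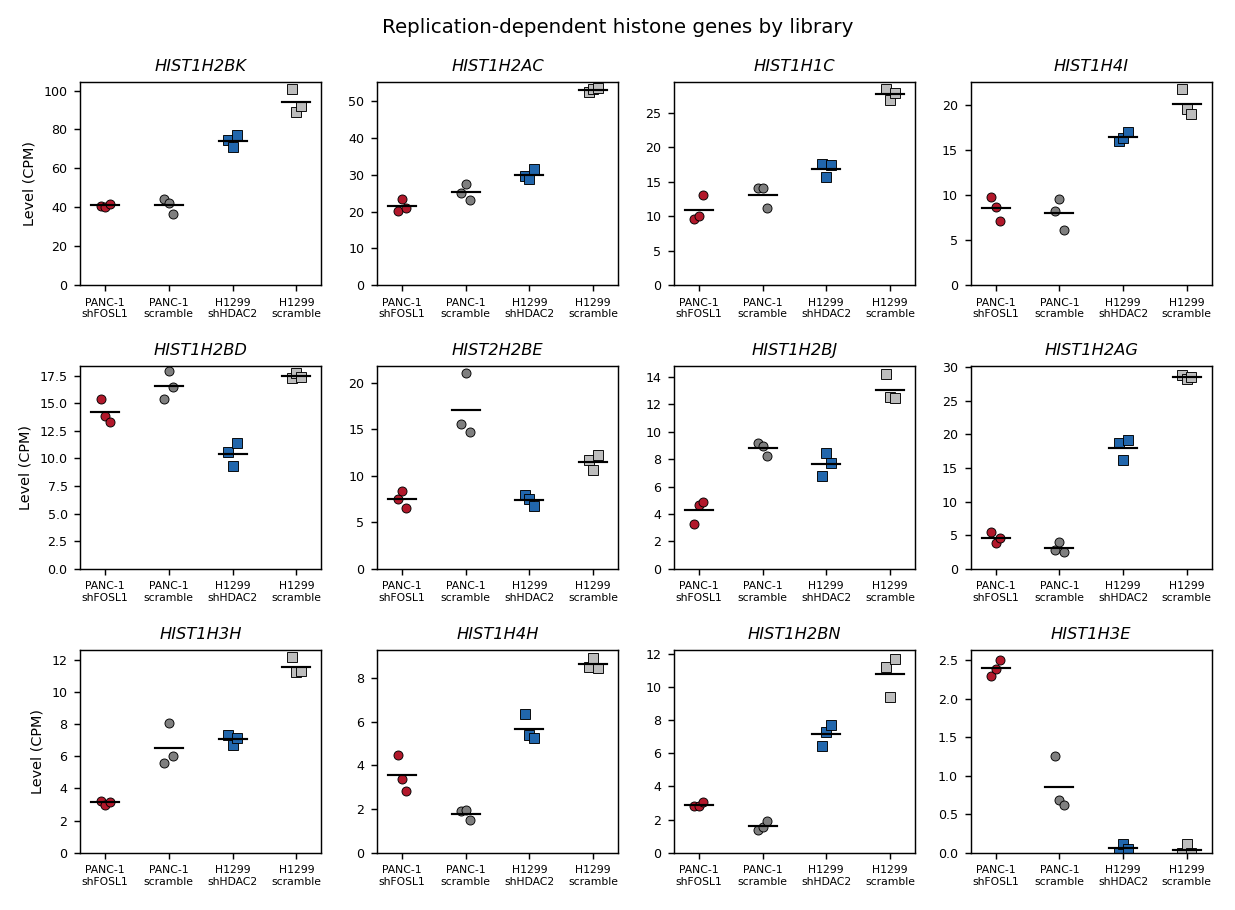
Level in CPM of 12 replication-dependent genes in the 12 libraries, with linear axes from 0. Points are libraries and lines are group means (n = 3). In H1299 all but HIST1H3E lie lower with shHDAC2 than with scramble, while in PANC-1 HIST2H2BE, HIST1H2BJ and HIST1H3H lie lower and HIST1H4H, HIST1H2BN and HIST1H3E higher with shFOSL1.

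Of 10 variant genes tested under FOSL1 knockdown, 1 (10%) rose and 5 (50%) fell by edgeR's quasi-likelihood test, where 23.8% of all genes rose and 27.1% fell. The median log2 fold change was -0.11. The 60% called in either direction lay near the 50.9% of all genes. H2AFZ, the H2A.Z gene of promoters and enhancers, was 319, 322 and 291 CPM in the shFOSL1 libraries and 256, 233 and 222 CPM in scramble. It rose by 0.38 on the log2 scale (SE 0.06, edgeR adjusted p = 1.3e-05). Its paralog H2AFV was 182 to 189 CPM against 161 to 186 CPM and was not called (log2 fold change 0.13). H2AFX was 185, 182 and 185 CPM against 286, 255 and 217 CPM, with even knockdown and spread scramble libraries, and fell by 0.47 on the log2 scale (edgeR adjusted p = 7.69e-06). H2AFY2 was 6.02, 5.72 and 5.52 CPM against 12.6, 8.89 and 10.6 CPM, a log2 fold change of -0.90 and the largest among variants in this comparison. H2AFY, which encodes macroH2A1, was 158 to 171 CPM against 168 to 172 CPM and was not called.

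H1F0 was 536, 555 and 493 CPM against 649, 626 and 656 CPM, a log2 fold change of -0.29 ± 0.06 (SE, edgeR adjusted p = 9.77e-05). H1FX was 101, 101 and 97.7 CPM against 125, 102 and 109 CPM and H3F3B was 652, 644 and 628 CPM against 726, 716 and 661 CPM. Their log2 fold changes were -0.17 and -0.14 with edgeR adjusted p-values of 0.0409 and 0.0366. With DESeq2 neither was called, at 0.0965 and 0.0904. H1FX was also lost without any of the shFOSL1 libraries or scramble replicate 1 or 3, at 0.0526 to 0.257, and H3F3B without any of the shFOSL1 libraries or scramble replicate 1 or 2, at 0.0577 to 0.277. H3F3A was 151, 157 and 157 CPM against 144, 148 and 141 CPM, and H2AFJ was 45.1, 41.2 and 37.4 CPM against 41.8, 35.6 and 36.0 CPM, neither called. Without PANC-1 scramble replicate 1, which stood apart, 4 variants were called higher, as H3F3A (0.11), H2AFV (0.22) and H2AFJ (0.21) joined H2AFZ. The remaining 6 variants, H1FOO, H3F3C, H1FNT, H2AFB1, H2AFB2 and H2AFB3, stood at 0.164 CPM or less as means of the 12 libraries. H1FX-AS1, whose exons overlap H1FX on the opposite strand, was not called in either comparison, and since the library kit does not mark strand, its reads and those of H1FX cannot be told apart in the overlap.

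**Figure D5:**
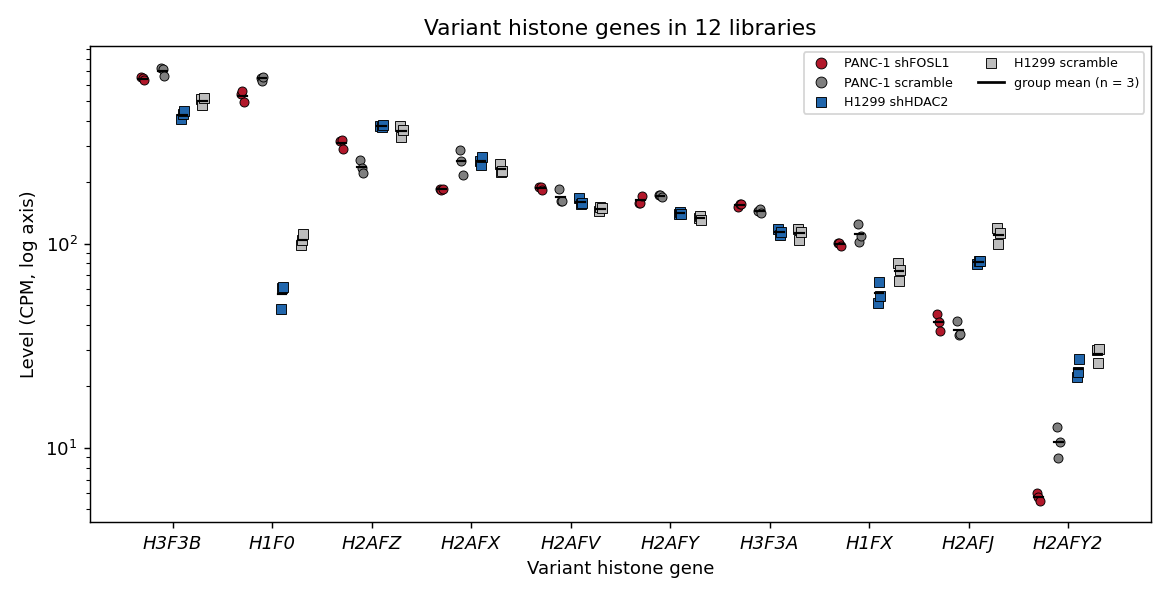
Level in CPM, on a log axis, of the 10 variant genes in the 12 libraries. Points are libraries and lines are group means (n = 3). H1F0 spans the widest range, from 493 to 656 CPM in PANC-1 to 47.7 to 111 CPM in H1299, and H2AFX and H2AFZ lie apart between shFOSL1 and scramble in opposite directions.

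Whether an effect differed between the knockdowns was tested by an interaction term, the FOSL1 effect minus the HDAC2 effect, in a fit of the 12 libraries. It was called for 11 of 35 replication-dependent genes (8 positive and 3 negative) and for 5 of 10 variants (3 positive and 2 negative), where 33.8% of all 18505 genes tested were called (18.3% positive and 15.5% negative). The 16 called were 35.6% of the 45 members tested, near that background. Since line and target were confounded, both cannot be told apart in this difference. Of 22 replication-dependent genes tested in both comparisons, 6 (27.3%) fell in both, as did 4.48% of all 14585 genes tested in both, and 3 (13.6%) rose with FOSL1 and fell with HDAC2 knockdown, as did 3.14% of all genes. These were HIST1H4H, HIST1H2BN and HIST1H2AG. Their differences were 1.62 ± 0.26, 1.46 ± 0.26 and 1.25 ± 0.21 (SE, log2), with edgeR adjusted p-values of 1.29e-05, 3.78e-05 and 1.87e-05. Since opposite calls in the same libraries picked these genes, their called differences add no separate support. The rise of HIST1H2AG with FOSL1 knockdown was not called without shFOSL1 replicate 1 or scramble replicate 3. HIST1H2AC (0.60), HIST1H2BD (0.53), HIST1H1C (0.47) and HIST1H2BK (0.35) had differences above 0, so that their values were lower with HDAC2 knockdown. HIST2H2BC (-0.82), HIST2H2BE (-0.54) and HIST1H2AE (-1.09) had differences below 0. The calls of HIST1H1C, HIST1H2AE and HIST2H2BE were lost in 5 of 12 fits without 1 library, and that of HIST1H2BK in 2. HIST1H2BJ and HIST1H3H had no called difference, at -0.25 ± 0.20 and -0.33 ± 0.22 (SE). Among variants, the differences were 0.61 for H1F0, 0.58 for H2AFJ and 0.33 for H2AFZ, and -0.63 for H2AFY2 and -0.57 for H2AFX.

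Neighbouring H2A and H2B genes with starts close together were compared as pairs. Only pairs whose genes were both tested in both comparisons are given. HIST1H2BJ and HIST1H2AG, transcribed away from each other from starts 248 bases apart at 27132795 and 27133043 on chromosome 6, had log2 fold changes of -1.05 and 0.56 with FOSL1 knockdown and of -0.77 and -0.67 with HDAC2 knockdown. The value of 0.56 came from groups that overlapped, and its call depended on single libraries. HIST1H2BC and HIST1H2AC, with starts 219 bases apart, had -0.75 and -0.24 with FOSL1 knockdown and -0.65 and -0.83 with HDAC2 knockdown. HIST1H2BG and HIST1H2AE, with starts 233 bases apart, had -0.65 and -1.85, and then -0.61 and -0.74. HIST1H2BC and HIST1H2BG were named here for their place in the pairs, after their values were seen. In GENCODE 44, 30.9% of the exon bases of HIST1H2BC are shared with genes on the opposite strand, HFE among them. Reads in that overlap cannot be told apart. The AP-1 motif TGANTCA, searched on both strands in RefSeq promoters of 250 bases before to 50 bases after the start, was found in 1 of 63 replication-dependent promoters (HIST1H3G), in 0 of 14 variant promoters and in 7.76% of all 27305. CCAAT was found in 84.1% and 78.6% of both classes against 35.7% of all, and TATAAA in 65.1% and 28.6% against 12% of all.

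The factors that make and place histones were read from lists of other genes. SLBP, which binds the stem-loop, did not pass the test in either comparison, with log2 fold changes of 0.05 with FOSL1 and -0.08 with HDAC2 knockdown. NPAT, the coactivator of replication-dependent histone transcription, was at 0.00 with FOSL1 knockdown (edgeR adjusted p = 0.979) and rose by 0.47 with HDAC2 knockdown (edgeR adjusted p = 0.000423). Of 19 genes of histone mRNA transcription and 3′ end processing, 6 rose and 0 fell with HDAC2 knockdown, led by CASP8AP2 (0.51), a partner of NPAT, or 31.6% called where 22.4% of all genes were. With FOSL1 knockdown 8 rose and 2 fell, where 23.8% of all genes rose and 27.1% fell. The 52.6% called in either direction lay near the 50.9% of all genes. Among those called were MBLAC1 (1.03), an endonuclease for histone pre-mRNA, and LSM11 (-0.87), a subunit of the U7 particle. Of 26 tested histone chaperone and deposition genes, 7 rose and 2 fell with HDAC2 knockdown (34.6% called, against 22.4% of all genes), and 10 rose and 4 fell with FOSL1 knockdown (53.8%, near the 50.9% of all genes). HIRA and ASF1A, which deposit H3.3 or carry it, rose by 0.89 and 0.87 with FOSL1 knockdown. HJURP, the chaperone of the centromeric H3, fell by 0.93 with FOSL1 knockdown and rose by 0.27 with HDAC2 knockdown. The 2 that fell with HDAC2 knockdown were SUPT16H (-0.47) and ASF1B (-0.28), and MMS22L (0.37) had the largest rise. ASF1B also fell with FOSL1 knockdown (-0.48).

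Genes of S phase and DNA replication mostly rose in H1299, where the replication-dependent histone genes fell. Of 30, 20 rose and 1 fell with HDAC2 knockdown, or 70% called where 22.4% of all genes were, with a median log2 fold change of 0.23. UHRF1 and PCNA, a chromatin maintenance factor and the replication clamp, each rose by 0.34, and CCNE1, cyclin E1, fell by 0.57. With FOSL1 knockdown 3 of 30 rose and 12 fell, with a median of -0.07, where 23.8% of all genes rose and 27.1% fell. The 50% called in either direction lay near the 50.9% of all genes. CDC6 (-0.66) and CCNA2 (-0.62) led the falls and POLE2 (0.32) and MCM7 (0.23) the rises. Of the 4 class I deacetylases, HDAC1 rose by 0.17 with HDAC2 knockdown and HDAC8 fell by 0.37 with FOSL1 knockdown.

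Of the 20 RNAs made without a poly(A) tail, 2 were tested with HDAC2 knockdown, of which 1 fell and 1 rose. Their sum, carried almost wholly by RN7SL1, was 66.5, 68.8 and 63.2 CPM in shHDAC2 and 86.5, 118 and 216 CPM in scramble, and RN7SL1 had a log2 fold change of -1.13 (edgeR adjusted p = 3.54e-06), while SNORD3A rose by 1.01. RN7SL1 has near-identical copies, so its level is uncertain. The scramble libraries of this sum were spread, while the sum of the replication-dependent genes was 383, 360 and 363 CPM in the same libraries. In PANC-1 the sums overlapped, at 166 to 270 CPM against 164 to 233 CPM. Their part in the histone result was not tested. Epithelial markers summed to 1222 to 1257 CPM in PANC-1 shFOSL1 and 1828 to 2418 CPM in scramble. In H1299 they summed to 351 to 372 CPM in shHDAC2 and 550 to 610 CPM in scramble. KRT8 and KRT18 carried nearly all of the H1299 sum, while CLDN4 rose there (log2 fold change 0.48). Fibroblast markers, nearly all COL1A1, summed to 74.2 to 80.2 CPM in PANC-1 shFOSL1 and 224 to 287 CPM in scramble. The sum of the pancreatic ductal markers went the other way, but not each marker did. It was 629 to 649 CPM in PANC-1 shFOSL1 and 561 to 639 CPM in scramble, which overlapped. There MUC1 and KRT19 rose (log2 fold changes 0.35 and 0.22), KRT7 fell (-0.88) and SOX9 was not called. In H1299 the sum was 187 to 199 CPM in shHDAC2 and 165 to 173 CPM in scramble. SOX9, which rose by 0.23, carried nearly all of it, while MUC1 (-0.73) and KRT7 (-0.71) fell. The part of these markers in the histone result was not tested either.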

How the data were processed

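RNA was sequenced from PANC-1 and H1299 cells, 3 libraries in each of 4 groups, grouped by the labels. The deposited table holds raw counts per gene, which the authors made, per the labels and the submitters' processing notes, with cutadapt, FastQC, STAR 2.7.2b and featureCounts 2.0.1 on GRCh38. The annotation release, the strand setting, the treatment of reads with several matches and any poly(A) selection were not given in the sources used here. Reads shared by near-identical histone genes could have been dropped or split.

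Each knockdown was compared with scramble of its own line in R 4.3.3 with edgeR 4.0.16: filterByExpr, TMM scaling and the quasi-likelihood test, with Benjamini-Hochberg adjustment over all genes tested and a call at an adjusted p under 0.05. An interaction over the 12 libraries tested the difference between effects. The script was tested on simulated data. Total counts were 16065723 to 19173421. Levels of single libraries carry no interval, as the spread between libraries exceeded counting error. Equal replicate numbers did not mark paired libraries (correlations of same-numbered deviations from -0.0777 to 0.0916), so a block was an alternative only.

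Of the members, 89 were found in GENCODE 44 by gene ID, 83 of them with another ID version than in the table, so lengths are approximate. Of the replication-dependent rows, 4 are annotated as pseudogenes (HIST2H2BA, HIST2H2BC, HIST2H2BD and HIST3H2BA), though their symbols do not end as such. Named were every variant with a group mean of at least 1 CPM, the 10 replication-dependent genes of highest CPM per kb, up to 5 called higher and 5 lower in each comparison with a mean of at least 1 CPM, SLBP, NPAT and up to 2 genes in each direction of each list. Members and lists were chosen with earlier results of these data known. Alternatives were DESeq2 1.42.0, other scalings and filters, a fold threshold, the block, 1 fit of all libraries and leaving out each library. Alternatives without annotated pseudogenes, or with members that passed the filter in both groups, were chosen after seeing the data. The proteins were not analysed here, and 1 cell type marker is not reported here.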

Additional observations from a re-analysis of the deposited data

Results flagged for a closer look

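A difference between the FOSL1 effect in PANC-1 and the HDAC2 effect in H1299, by the interaction term of edgeR's quasi-likelihood test, marked 16 of 45 histone genes tested, or 35.6%, near the 33.8% of all genes. Positive differences (log2) were found for HIST1H4H (1.62), HIST1H2BN (1.46), HIST1H2AG (1.25), H1F0 (0.61), HIST1H2AC (0.60), H2AFJ (0.58), HIST1H2BD (0.53), HIST1H1C (0.47), HIST1H2BK (0.35) and H2AFZ (0.33). Negative ones were found for HIST1H2AE (-1.09), HIST2H2BC (-0.82), H2AFY2 (-0.63), H2AFX (-0.57) and HIST2H2BE (-0.54). HIST1H4K had a fitted difference of 5.70, which is no bound, since it had 1, 5 and 4 counts in PANC-1 shFOSL1 and 0 counts in every PANC-1 scramble library. The calls of HIST1H1C, HIST1H2AE and HIST2H2BE were each lost in 5 of 12 fits without 1 library, and that of HIST1H2BK without H1299 shHDAC2 replicate 2 or PANC-1 scramble replicate 3.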

How the results depend on the processing

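The counts of replication-dependent genes that rose or fell, and of histone genes with a called difference, stayed within 1.5 times their values under every alternative run. With FOSL1 knockdown, the 1 variant that rose became 0 with a fold threshold of 0.5 (log2) and 2 in a fit of all 12 libraries, and the 5 that fell became 1 with the fold threshold and 3 with DESeq2, RLE scaling, TMM without mitochondrial and the 20 most abundant genes, no filter beyond 1 count, and the fit of all libraries. The 5 variants that fell with HDAC2 knockdown became 1 with the fold threshold. The cause was not tested, beyond the threshold itself. With no filter beyond 1 count, the median log2 fold changes went from -0.26 to 0.0023 (FOSL1) and from -0.62 to -0.32 (HDAC2) for replication-dependent genes and from -0.11 to 0.08 for variants with HDAC2 knockdown, as low genes joined. Leaving out each library in turn gave 3 to 5 replication-dependent genes higher and 8 to 12 lower with FOSL1 knockdown, 0 higher and 13 to 17 lower with HDAC2 knockdown, and 13 to 19 called differences. For variants it gave 1 to 4 higher (4 without PANC-1 scramble replicate 1) and 3 to 4 lower with FOSL1 knockdown, and 0 to 2 higher (2 without H1299 scramble replicate 1) and 3 to 5 lower with HDAC2 knockdown. Values near 0 that changed sign were HIST1H2BK with FOSL1 knockdown (0.0070 with DESeq2, 0.0071 with RLE, 0.0044 without the most abundant genes, 0.0067 without the filter and 0.012 in the fit of all libraries; -0.070 to 0.063 without single libraries) and HIST1H3B with FOSL1 knockdown (0.00023 with DESeq2, 0.0023 with RLE and without the filter, and 0.0077 in the fit of all libraries; -0.21 to 0.40). Without single libraries, HIST1H4I spanned -0.053 to 0.27 and HIST1H3G -0.28 to 0.56 with FOSL1 knockdown, and H3F3A -0.032 to 0.062 and HIST2H2BD -0.42 to 0.12 with HDAC2 knockdown. The replicate numbers paired no libraries. With the replicate number as a block, 17 replication-dependent genes fell with HDAC2 and 10 with FOSL1 knockdown, 17 differences were called, and HIST1H3G (0.021) and HIST1H3B (0.014) changed sign with FOSL1 knockdown; no sample correlated over 0.1 with its own number. Upper quartile scaling moved the share of higher among all called genes in the HDAC2 comparison from 46.1% to 39.6%. Depth limited genes under 1 CPM, which held 49 of 74 replication-dependent rows, so that absence of expression cannot be read from them.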
